A study of Mus musculus with 9 samples.

Results

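The long intergenic noncoding RNAs (lincRNAs) expressed in mouse primary renal tubular epithelial cells are described here. Members were chosen by their measured level. A row of the deposited table was taken when its biotype was lincRNA and its mean over the 9 libraries reached 1 FPKM (fragments per kilobase of transcript and per 1e6 fragments, a level corrected for length and depth). This left 145 members of 2497 lincRNA rows, or 5.81%, whereas 59.8% of 18266 protein-coding rows reached the same mean. The cells came from kidney of C57BL/6 mice and formed 3 groups with 3 libraries each. Sham was the control, H/R stands for 6 h at 1.0% O2 in glucose-free medium followed by 18 h of reoxygenation in complete medium, a model of ischemia and reperfusion, and in EGR1OV a plasmid overexpressed Egr1 from a CMV promoter after transfection with EndoFectin Max. The age of the mice is not given in the sources used here. Although all samples carry the same protocol text, the study's legend assigns H/R and the plasmid to one group each and describes Sham cells as untreated. An empty-vector library was not analysed here. An effect of Egr1 and an effect of the plasmid therefore cannot be told apart. Nothing says that the libraries of a group came from separate cultures, and p-values then measure only the spread between these libraries.

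A lincRNA is transcribed from its own promoter, is usually capped, spliced and polyadenylated like a messenger RNA, and has no long conserved reading frame. Some act in the nucleus, such as Malat1 in speckles and Neat1 as the scaffold of paraspeckles, some carry small nucleolar RNAs or microRNAs, and some start beside a protein-coding gene that runs the other way. Most have no known role. Egr1 is a zinc finger transcription factor of the immediate early class, and it is induced in the injured kidney.

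Egr1 itself averaged 6.399 ± 0.443 FPKM (SD, n = 3) among Sham libraries, 7.88 ± 0.599 among H/R libraries and 42.6 ± 2.84 among EGR1OV libraries. Depth recovered from the table ranged from 16183622 to 18384009 reads. Of 15 tubule markers looked up, Krt8, Krt18, Cdh1 and Epcam averaged 857, 568, 92.9 and 90.9 FPKM, while Slc34a1, Slc12a1 and Slc12a3, which mark tubule segments, averaged 0.008401, 0.0681 and 0.0123 FPKM and Umod was listed at 0. Lrp2 and Aqp1, which mark the proximal tubule, averaged 2.76 and 0.942 FPKM and fell in EGR1OV against Sham by 1.05 and 0.75 on the log2 scale, among 5 tubule markers that fell and 1 (Epcam) that rose of 9 tested. Cd3e, 1 of 11 leukocyte markers looked up, and the tubule marker Aqp2 had no row, and the sums leave them out. The summed FPKM of the leukocyte markers ran from 145 to 150 among Sham libraries, from 122 to 128 among H/R libraries and from 39.3 to 46.4 among EGR1OV libraries. Tubule markers summed to 1973 to 2013, 1827 to 1913 and 1274 to 1385 FPKM in that order, endothelial markers to 9.32 to 9.75, 9.497 to 9.89 and 6.55 to 7.201, and fibroblast markers to 33.6 to 35.4, 40.1 to 41.2 and 38.2 to 43.1. Of 5 fibroblast markers tested, 1 (Col1a2, 0.45 on the log2 scale) rose and 1 (Thy1, -0.50) fell in EGR1OV against Sham. Of 8 leukocyte markers tested, 7 fell and 1 (Cd14) rose in EGR1OV against Sham. In H/R against Sham, Epcam, Col1a1 and Col1a2 were called higher, by 0.33, 0.27 and 0.32 on the log2 scale. The leukocyte markers Lyz2 and Adgre1 were called lower there, at -0.29 and -0.36, and no other marker was called. These shifts moved together with the EGR1OV and H/R differences below, and their part in them was not tested. In bulk samples, fewer cells of a type and less RNA per cell cannot be told apart.

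Most members were expressed at a low level. The median of their mean levels was 2.12 FPKM, with quartiles at 1.42 and 4.44 FPKM, against a median of 8.05 FPKM for the protein-coding rows that reached 1 FPKM. There were 67 members under 2 FPKM, 30 at 5 FPKM or more and 10 at 20 FPKM or more. Summed over the members, the level was 792 ± 33.8 FPKM for Sham, 785 ± 20.8 for H/R and 816 ± 8.76 for EGR1OV. The median member had 39 reads in its lowest library, and 19 members had under 10 reads in at least 1 library. Among members at 1 to 10 FPKM the median coefficient of variation was 15.4% within Sham, 14.7% within H/R and 14.5% within EGR1OV. Protein-coding genes of the same FPKM range varied less, at 5.79%, 6.01% and 5.94%. Reads per gene were not matched between members and protein-coding genes, and the part of counting error in this difference was not tested.

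The members just inside the threshold were Gm27042 at 1.0005, Trp53cor1 at 1.01 and Gm16973 at 1.02 FPKM, and the lincRNA rows just outside it were AC139845.1 at 0.983, Gm32856 at 0.97995 and Gm17275 at 0.979 FPKM. In all 3 groups 119 members had a group mean of at least 1 FPKM. For 3 members, Gm4262, Gm26516 and Gm27042, only the EGR1OV mean did. The rule can thus favour genes that rose in a group, and 17 lincRNA rows that are no members reached 1 FPKM in EGR1OV, beside 12 in Sham and 7 in H/R.

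In order, the 10 members with the highest mean were Malat1, Gm42047, 2900097C17Rik, Gm26917, 2010300F17Rik, 1600027J07Rik, Eprn, Epb41l4aos, Gm10076 and Snhg6. Malat1, the abundant RNA of nuclear speckles, was at 82.9, 63.1 and 68.3 FPKM in Sham, 77.8, 71.8 and 87.2 in H/R and 81.1, 74.7 and 78.1 in EGR1OV. These ranges overlapped in all 3 comparisons. 2900097C17Rik, which RefSeq names Norad, binds Pumilio proteins and is known for its part in genome stability. It stood at 43.5, 43.1 and 38.8 FPKM in Sham, 41.6, 41.3 and 41.4 in H/R and 46.6, 44.8 and 44.3 in EGR1OV. Its EGR1OV libraries lay above those of both other groups, but the log2 difference from Sham of 0.11 ± 0.04 (SE) did not pass (adjusted p = 0.0558, limma).

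Gm26917 overlaps ribosomal RNA sequence. Its level spread from 25.1 to 42.4 FPKM within Sham, from 21.9 to 45.3 within H/R and from 30.9 to 38.5 within EGR1OV, and all groups overlapped. Another row with ribosomal reads, Gm23935, ran from 1494 to 21700 FPKM over the 9 libraries. It was at 4188, 1697 and 19553 FPKM in Sham, 3802, 21700 and 19504 in H/R and 1576, 1494 and 9378 in EGR1OV. The part of this uneven level in the calls was not tested. Gm10076, which RefSeq lists as a pseudogene, averaged 24.9 ± 3.83, 23.2 ± 0.925 and 21.5 ± 0.934 FPKM in Sham, H/R and EGR1OV. Epb41l4aos, whose reads can include those of the small RNA gene Gm23639 inside it, averaged 24.9 ± 2.61, 21.4 ± 1.896 and 25.7 ± 1.46 FPKM in that order. Neither was called in any comparison.

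**Figure D1:**
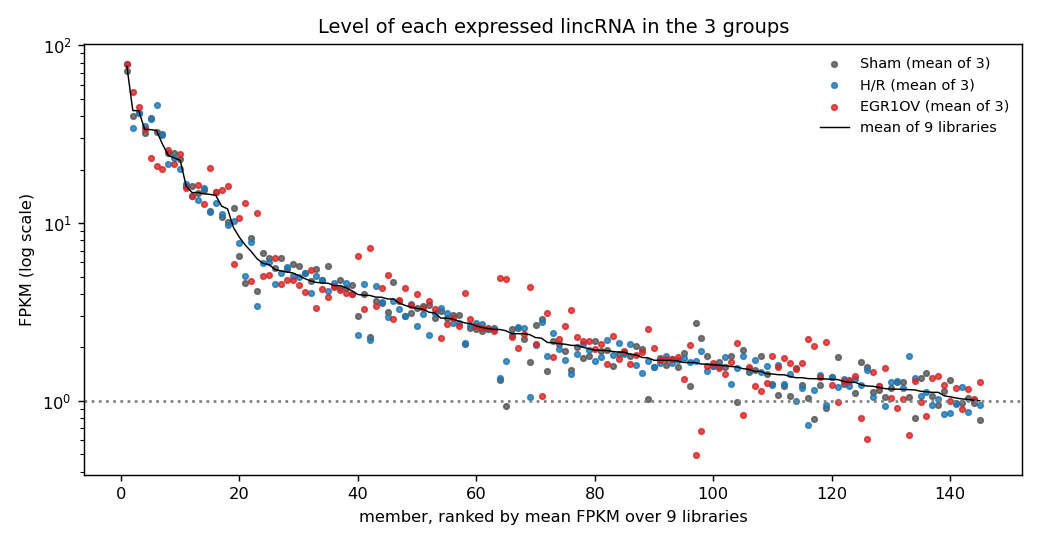
Level of the 145 members, ranked on the x axis by their mean over 9 libraries. The y axis is FPKM on a log scale, points are group means (n = 3), the line is the mean of 9 libraries and the dotted line is the threshold of 1 FPKM. Levels run from 76.1 FPKM (Malat1) down to 1.0005 FPKM (Gm27042).

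Which RNAs change in tubular cells when Egr1 is raised was the question behind EGR1OV against Sham. A call required an adjusted p below 0.05 (limma on log2(FPKM + 1), Benjamini-Hochberg over 13985 genes) and a 1.3-fold change on that scale. Of the members 39 were called, 23 higher and 16 lower in EGR1OV. This was 26.9% of members, beside 16.4% of all genes tested and 16.1% of genes at 1 to 10 FPKM. By direction, 15.9% were higher beside 9.87% of all genes, and 11.03% lower beside 6.51%. The order depended on the fold threshold, since without one 59 members or 40.7% passed beside 45.9% of all genes. The median log2 change was 0.02 for members and 0.02 for all genes tested, and the median size of the change regardless of sign was 0.21 and 0.16. The membership rule uses the EGR1OV libraries too, and 4 members called higher had a Sham mean under 1 FPKM. Likewise 6 members called lower had an EGR1OV mean under 1 FPKM. With membership set on the Sham mean alone, 38 of 147 lincRNAs were called, 19 in each direction, so rises no longer outnumbered falls.

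**Figure D2:**
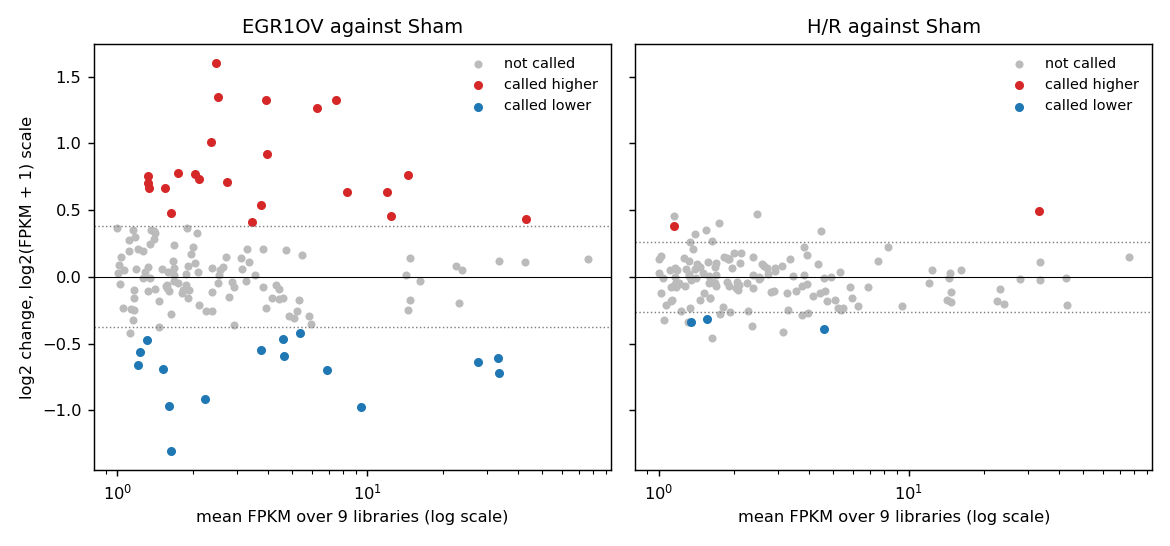
Log2 change of the 145 members on the log2(FPKM + 1) scale against their mean FPKM (log scale), for EGR1OV against Sham (left) and H/R against Sham (right). Coloured points are called members and dotted lines the fold thresholds of 1.3 and 1.2. On the left 23 members were called higher and 16 lower, and on the right 2 and 3.

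Gm39090 showed the largest rise on the log2 scale. It went from 0.624, 1.13 and 1.04 FPKM in Sham and 1.37, 2.09 and 1.54 in H/R to 5.51, 4.82 and 4.17 in EGR1OV. The EGR1OV libraries lay apart from all others, with a log2 change from Sham of 1.60 ± 0.14 (adjusted p = 1.19e-05, limma). Gm39090 lies on chromosome 7 from 127691935 to 127700793 and overlaps the protein-coding gene Bcl7c, whose log2 difference was 0.01 ± 0.05. Since the strand setting of the libraries is not stated, reads of overlapping genes cannot be told apart.

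Gm13710, on chromosome 2, was at 1.58, 1.31 and 1.07 FPKM in Sham, 0.832, 1.92 and 1.29 in H/R and 5.49, 4.57 and 4.62 in EGR1OV. Sham and H/R overlapped and the EGR1OV values were all higher, by 1.35 ± 0.16 against Sham (adjusted p = 9.97e-05, limma). Gm12603 is named Wincr1 in RefSeq, a lincRNA known to respond to Wnt signalling. Again EGR1OV alone stood apart, at 1.998, 2.03 and 2.87 FPKM in Sham, 2.27, 1.57 and 2.74 in H/R and 6.25, 6.83 and 8.67 in EGR1OV. Its log2 change from Sham was 1.32 ± 0.16 (adjusted p = 0.00013, limma).

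AU020206 had the most reads among the 8 largest rises, with 558 to 654 per EGR1OV library. Its values were 4.005, 4.19 and 4.18 FPKM in Sham, 3.29, 3.09 and 3.84 in H/R and 12.3, 11.2 and 10.4 in EGR1OV. H/R lay below Sham and EGR1OV far above both, with a log2 change from Sham of 1.26 ± 0.07 (adjusted p = 8.44e-07, limma). Gm11216, with only 354 exonic bases, rested on 21 to 35 reads per Sham library and 62 to 87 per EGR1OV library. It was at 4.47, 5.67 and 3.59 FPKM in Sham, 5.41, 5.69 and 3.98 in H/R and 10.5, 13.7 and 14.6 in EGR1OV, and its EGR1OV values were higher than all others (1.33 ± 0.16).

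AW112010 is induced in immune cells by inflammatory signals. It was found at 2.21, 3.28 and 3.54 FPKM in Sham, 1.77, 3.18 and 2.05 in H/R and 7.66, 5.96 and 6.02 in EGR1OV. EGR1OV lay above both other groups, with a log2 change from Sham of 0.92 ± 0.18 (adjusted p = 0.00219, limma). The summed leukocyte markers given above were lower in EGR1OV, where 7 of 8 tested fell and Cd14 rose against Sham. A link of AW112010 with these markers was not tested. Gm567 rested on few reads, 12 to 14 per Sham library and 7 to 11 per H/R library. Its levels were 1.82, 1.59 and 1.55 FPKM in Sham, 1.05, 1.28 and 0.842 in H/R and 3.98, 3.91 and 5.19 in EGR1OV, and the groups did not overlap. The log2 change was 1.01 ± 0.11 in EGR1OV, and the difference of -0.37 ± 0.11 in H/R did not pass (adjusted p = 0.0566, limma).

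Among the falls, Gm29337 was the largest. It was measured at 3.21, 1.82 and 3.1995 FPKM in Sham, 1.74, 1.72 and 1.59 in H/R and 0.424, 0.431 and 0.628 in EGR1OV. The log2 change from Sham was -1.30 ± 0.15 (adjusted p = 7.62e-05, limma), but its exonic length of 284 bases is the shortest of the members and only 2 to 3 reads lay behind each EGR1OV value. 4833412C05Rik fell on more reads, from 48 to 59 per Sham library to 9 to 22 per EGR1OV library. Its levels were 2.09, 2.43 and 2.21 FPKM in Sham, 1.99, 1.95 and 1.78 in H/R and 0.388, 0.702 and 0.937 in EGR1OV, with EGR1OV below all others (-0.97 ± 0.11, adjusted p = 9.76e-05, limma).

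Falls were also found in 3 of the 10 most abundant members. 2010300F17Rik, which overlaps Skap1, was at 40.7, 37.4 and 38.9 FPKM in Sham, 38.6, 38.6 and 37.8 in H/R and 23.01, 22.5 and 24.2 in EGR1OV. It fell by 0.72 on the log2 scale (adjusted p = 3.79e-07, limma), while Skap1 averaged 0.959 FPKM over all libraries. Eprn (chromosome 13, 73344665 to 73347384) had levels of 32.4, 32.1 and 30.9 FPKM in Sham, 31.8, 29.5 and 32.9 in H/R and 17.2, 21.3 and 22.1 in EGR1OV. In both members H/R overlapped Sham and all EGR1OV values were lower. The other one, 1600027J07Rik, is described with H/R.

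Other large falls were in Gm29630, Gm37565, Gm45391, Lhx1os and E230014E18Rik, with log2 changes of -0.97, -0.91, -0.70, -0.69 and -0.66. Gm29630 spread widely within EGR1OV, at 3.86, 5.79 and 7.95 FPKM, and still lay below the Sham values of 13.6, 10.7 and 12.1. Lhx1os and E230014E18Rik passed with adjusted p of 0.0258 and 0.0246 (limma), on as few as 6 and 5 reads in a library. For all 39 called members the EGR1OV libraries did not overlap the Sham libraries, a separation seen in 50.3% of members and 55.7% of all genes tested. An exact permutation test (two-sided) of 3 against 3 gave 0.1 for each of them, the smallest p it allows. Libraries without overlap always give this value, so the test restates the separation and adds no check.

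**Figure D3:**
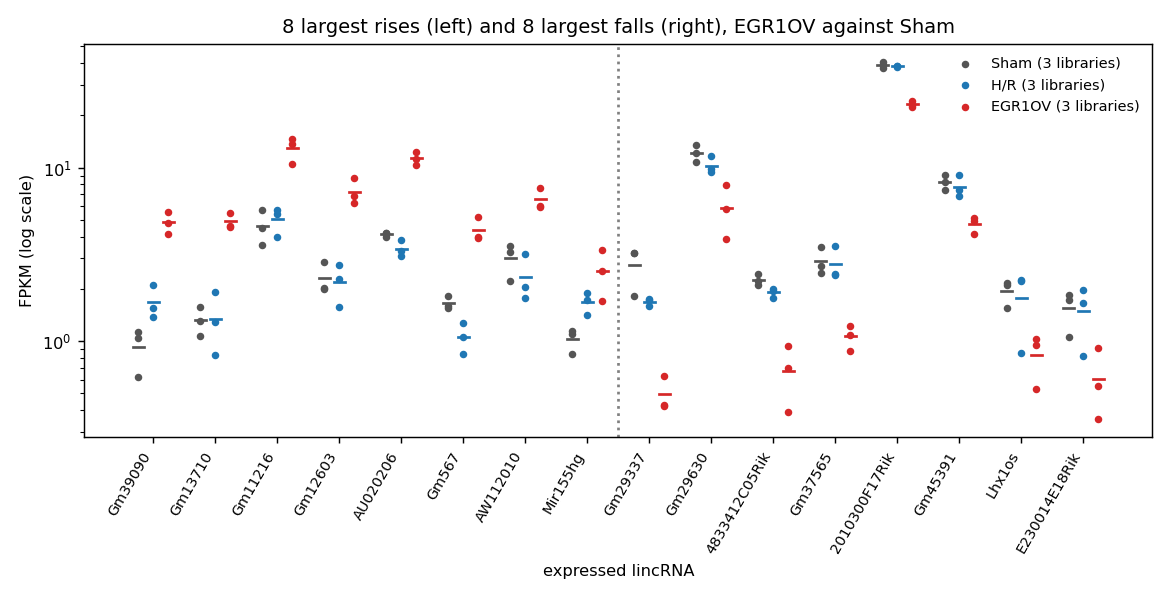
FPKM (log scale) of the 8 members with the largest rises (left of the dotted line) and the 8 with the largest falls (right) in EGR1OV against Sham. Each point is 1 library and each bar the mean of 3. EGR1OV points lie apart from Sham for every member shown, from Gm39090 (0.9297 to 4.83 FPKM in the mean) to Gm29337 (2.74 to 0.494 FPKM).

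Among nuclear-retained RNAs a called rise was found in Neat1, which builds paraspeckles. Neat1 was at 6.83, 6.497 and 6.18 FPKM in Sham, 8.07, 6.91 and 8.301 in H/R and 10.6, 11.7 and 9.64 in EGR1OV. The groups did not overlap, and the log2 change of EGR1OV from Sham was 0.63 ± 0.08 (adjusted p = 0.00015, limma), whereas the H/R difference of 0.22 ± 0.08 did not pass (adjusted p = 0.104, limma). Its neighbour on chromosome 19, Malat1, differed from Sham by 0.13 ± 0.10 in EGR1OV. Of 6 genes listed as nuclear-retained 4 were tested, and 1 rose and 0 fell.

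Gm42047, which ranked next to Malat1 in abundance, was higher in EGR1OV and lower in H/R than in Sham. It was at 41.01, 39.1 and 39.7 FPKM in Sham, 34.5, 33.8 and 35.02 in H/R and 54.8, 56.2 and 52.2 in EGR1OV, without overlap. The rise of 0.44 ± 0.03 in EGR1OV was called (adjusted p = 5.34e-06, limma), and the difference of -0.21 ± 0.03 in H/R passed the adjusted p (0.00586) but not the 1.2-fold threshold.

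MicroRNA hairpins of RefSeq lay inside 8 members on the same strand, 13 hairpins in all, and 2 of these 8 hosts rose in EGR1OV against Sham, beside 9.87% of all genes. The libraries measure the host transcript and not the mature microRNA. Shown 5′ to 3′ are arms of the 3 hosts described next, with the seed (bases 2 to 8, which pairs with targets) in capitals. miR-155-5p lies in an exon of Mir155hg (chromosome 16 from 84714143 to 84714165, GRCm38.p6, plus strand), miR-101a-3p in an exon of E130102H24Rik (chromosome 4 from 101346957 to 101346977, minus strand), and the others in an exon of Mir17hg (chromosome 14 from 115043684 to 115044496, plus strand).
miR-155-5p: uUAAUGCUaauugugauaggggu
miR-101a-3p: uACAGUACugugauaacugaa
miR-17-5p: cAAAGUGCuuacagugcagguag
miR-20a-5p: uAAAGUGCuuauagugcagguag
miR-18a-5p: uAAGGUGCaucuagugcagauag
miR-19a-3p: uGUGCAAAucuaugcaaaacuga
miR-19b-3p: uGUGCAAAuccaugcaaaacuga
miR-92a-3p: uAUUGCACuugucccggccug
Within the Mir17hg cluster miR-17-5p and miR-20a-5p share a seed, as do miR-19a-3p and miR-19b-3p, so the 6 arms shown hold 4 seeds. The seeds of miR-155-5p and miR-101a-3p occur in none of the others shown.

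Mir155hg is the precursor of miR-155, which is induced in activated immune cells. Its levels were 1.103, 0.841 and 1.14 FPKM in Sham, 1.897, 1.404 and 1.73 in H/R and 3.36, 2.52 and 1.7002 in EGR1OV. EGR1OV spread widely, lay above Sham (0.77 ± 0.16, adjusted p = 0.00318, limma) and overlapped H/R, and H/R also lay above Sham without passing (0.40 ± 0.16, adjusted p = 0.135, limma). E130102H24Rik, the host of miR-101a, was at 1.52, 1.75 and 1.19 FPKM in Sham, 1.55, 1.13 and 1.597 in H/R and 3.67, 3.27 and 2.78 in EGR1OV. Its EGR1OV values were all higher, by 0.77 ± 0.12 against Sham (adjusted p = 0.000513, limma).

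Mir17hg, the host of a microRNA cluster that Myc activates, was at 1.77, 1.38 and 1.56 FPKM in Sham, 1.83, 1.74 and 1.85 in H/R and 2.47, 2.02 and 2.42 in EGR1OV. All EGR1OV values were highest, but the log2 difference from Sham of 0.36 ± 0.08 (adjusted p = 0.00386, limma) fell short of 1.3-fold on this scale. Mirt1 averaged 1.31 ± 0.109, 1.204 ± 0.136 and 1.298 ± 0.188 FPKM in Sham, H/R and EGR1OV, with overlap throughout. From a list of 16 microRNA hosts and related RNAs 4 were tested, of which 1 rose and 0 fell against Sham.

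Hosts of small nucleolar RNAs moved in different directions. Of 20 listed hosts 15 were tested and 6 were members. In EGR1OV against Sham 2 rose (Zfas1 by 0.67 and Snhg15 by 0.47 on the log2 scale) and 2 fell (Snhg8, -0.38, and Snhg18, -0.59), with a median log2 change of -0.06 beside 0.02 for all genes tested. The members Snhg6, Snhg12, Snhg20 and Epb41l4aos were not called, with log2 differences of 0.08, -0.17, 0.16 and 0.05. Against H/R, Snhg20 was 0.40 ± 0.07 higher in EGR1OV (adjusted p = 0.00105, limma), at 6.33 ± 0.265 beside 4.55 ± 0.115 FPKM.

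Snhg10 differed most of these hosts between H/R and EGR1OV. It was at 1.03, 1.41 and 0.687 FPKM in Sham, 1.99, 1.54 and 1.81 in H/R and 0.797, 0.231 and 0.899 in EGR1OV. EGR1OV differed from H/R by -0.78 ± 0.18 on the log2 scale (adjusted p = 0.00519, limma). Neither group was called against Sham, which lay below H/R and overlapped EGR1OV, and as few as 2 reads lay behind a value.

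From a list of 16 RNAs tied to DNA damage and growth, 4 were tested and 3 were members under the listed symbols. Norad, also listed, is the member 2900097C17Rik described above, which was not called, and with it 5 were tested and 4 were members. Trp53cor1 (lincRNA-p21), a target of p53 next to Cdkn1a, averaged 0.975 ± 0.0574, 1.02 ± 0.193 and 1.03 ± 0.265 FPKM in Sham, H/R and EGR1OV. Pvt1, a neighbour of Myc, averaged 1.71 ± 0.101, 1.62 ± 0.186 and 1.73 ± 0.0628 FPKM, and both overlapped between all groups. Dubr, known from muscle differentiation, was at 2.87, 3.58 and 3.12 FPKM in Sham, 3.301, 2.98 and 3.66 in H/R and 2.45, 2.18 and 2.12 in EGR1OV. Its EGR1OV values were lower than all others, and it was called against H/R (-0.41 ± 0.08, adjusted p = 0.00248, limma) but not against Sham (-0.36 ± 0.08, adjusted p = 0.00521, limma). The list's call against Sham was Hotairm1, which is no member and changed by -0.56 on the log2 scale.

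The immune list held 4 members, of which Mir155hg was called. Gm14005, named Morrbid in RefSeq, represses its neighbour Bcl2l11, a cell death gene, in myeloid cells. It was at 5.96, 4.88 and 4.96 FPKM in Sham, 5.299, 5.71 and 4.75 in H/R and 3.82, 4.6003 and 3.91 in EGR1OV. EGR1OV was lower without overlap (-0.29 ± 0.09, adjusted p = 0.0223, limma) but under the fold threshold. Bcl2l11 rose by 0.64 ± 0.06, from 3.45 ± 0.3399 FPKM in Sham to 5.902 ± 0.0589 in EGR1OV. A link of this rise with Gm14005 was not tested. Other annotated genes overlap Gm14005, and their reads cannot be told apart from its own.

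Imprinted and X inactivation RNAs held no member. Of 10 imprinted RNAs listed 2 were tested, and Peg13 changed by -0.56 on the log2 scale in EGR1OV against Sham. None of 4 X inactivation RNAs was high enough to test. Of 4 rows listed for ribosomal overlap 2 were tested and 0 were called (limma), Gm26917 with a log2 difference of 0.12 ± 0.26 and Gm23935 with -0.88 ± 1.05.

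Each member was then set beside its nearest protein-coding gene. The median gap was 5139 bp, 16 members overlapped a protein-coding gene, and 23 members (15.9%) were divergent, starting within 1000 bp of a protein-coding gene on the other strand. Of the members called higher in EGR1OV against Sham, 21 had a tested neighbour, and 4 of these neighbours were called higher as well, beside 9.87% of all genes. These pairs were Zfp469 with Zfpm1, Gm8066 with Gigyf1, E130102H24Rik with Ak4 and Gm7160 with Zcchc2. Of 15 tested neighbours of members called lower, 3 were called lower, beside 6.51% of all genes. These were AC154760.1 with Uggt2, Lhx1os with Lhx1 and Prr33 with Lsp1. In 1 pair the directions differed, where Gm14321 changed by -0.56 and Cebpb, 87049 bp away, by 1.92 ± 0.18. In EGR1OV against H/R, 21 members called higher had a tested neighbour, of which 6 were called higher and 2 lower. Of 12 tested neighbours of members called lower there, 1 was called lower and 2 higher.

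In the 23 divergent pairs 5 members and 3 partners were called in EGR1OV against Sham, beside 16.4% of all genes. In 2 pairs both were called, each time in the same direction. Promoters of these 2 pairs are shown from the side of the lincRNA, 5′ to 3′, with 250 bases before and 50 bases after the RefSeq start (GRCm38.p6). Gm7160 starts 124 bp from Zcchc2 (window on chromosome 1 from 105990233 to 105990532, minus strand), and Lhx1os starts 125 bp from Lhx1 (chromosome 11 from 84525410 to 84525709, plus strand), so each window also holds the start of the partner. Snhg18 (chromosome 15 from 32244613 to 32244912, minus strand) is shown because it fell and holds the letters of the Egr motif. AU020206 (chromosome 7 from 75782071 to 75782370, minus strand) and 1600027J07Rik (chromosome 8 from 103347485 to 103347784, minus strand) are shown as the large rise with the most reads and the member called in opposite directions. Capitals mark, on either strand, GCGNGGGCG (Egr), ACGTG or GCGTG (hypoxia response), GAAA and GAAA parted by any 2 bases (interferon response), or GGGA and TTTCC parted by any base (NF-kB). GCGTG can lie inside an Egr match.
Gm7160: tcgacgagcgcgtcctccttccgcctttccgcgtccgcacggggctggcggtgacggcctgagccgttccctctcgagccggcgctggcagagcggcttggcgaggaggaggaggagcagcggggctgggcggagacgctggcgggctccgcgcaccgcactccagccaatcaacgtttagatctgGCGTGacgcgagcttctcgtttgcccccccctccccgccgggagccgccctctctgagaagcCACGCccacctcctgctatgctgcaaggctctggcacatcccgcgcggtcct
Lhx1os: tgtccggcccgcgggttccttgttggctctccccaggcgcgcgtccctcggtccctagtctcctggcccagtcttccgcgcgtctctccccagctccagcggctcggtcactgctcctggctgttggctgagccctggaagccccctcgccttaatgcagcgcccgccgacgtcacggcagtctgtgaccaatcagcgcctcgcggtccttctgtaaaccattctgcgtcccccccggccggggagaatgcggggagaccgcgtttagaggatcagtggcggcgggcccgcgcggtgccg
Snhg18: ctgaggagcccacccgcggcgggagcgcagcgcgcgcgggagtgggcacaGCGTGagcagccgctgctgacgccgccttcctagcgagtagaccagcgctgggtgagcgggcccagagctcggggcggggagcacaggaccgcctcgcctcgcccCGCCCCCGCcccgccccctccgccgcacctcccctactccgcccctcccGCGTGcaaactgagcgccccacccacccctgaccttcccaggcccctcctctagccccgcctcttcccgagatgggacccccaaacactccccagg
AU020206: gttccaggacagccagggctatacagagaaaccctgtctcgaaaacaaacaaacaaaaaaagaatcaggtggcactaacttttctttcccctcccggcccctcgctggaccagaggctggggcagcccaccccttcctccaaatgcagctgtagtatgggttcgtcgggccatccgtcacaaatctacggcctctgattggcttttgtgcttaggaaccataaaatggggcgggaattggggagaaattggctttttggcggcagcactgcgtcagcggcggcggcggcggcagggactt
1600027J07Rik: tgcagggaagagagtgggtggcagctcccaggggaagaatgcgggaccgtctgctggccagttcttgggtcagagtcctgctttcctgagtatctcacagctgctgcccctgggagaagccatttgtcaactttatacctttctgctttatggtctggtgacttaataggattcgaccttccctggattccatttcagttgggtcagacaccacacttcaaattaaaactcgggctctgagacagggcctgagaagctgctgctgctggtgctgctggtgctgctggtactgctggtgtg
In Gm7160 the letters GCGTG stand on both strands, in Snhg18 an Egr match stands at -95, and the windows of Lhx1os, AU020206 and 1600027J07Rik hold none of these letters.

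RefSeq held a promoter for 82 of the members. Egr letters were in 4 of them, or 4.88%, beside 5.55% of 32851 mouse promoters. These were 1810058I24Rik, Snhg18, E130102H24Rik and Fam120aos, of which E130102H24Rik rose and Snhg18 fell in EGR1OV. ACGTG was in 24.4% of member promoters beside 19.6% of all, GCGTG in 25.6% beside 32.4%, the interferon letters in 1.22% beside 3.44%, and the NF-kB letters in 0 members beside 0.411%. A match is a match of letters and not a site, and the RefSeq start of E130102H24Rik lies 487 bp from its start in GENCODE. Other RefSeq starts lie further from the start of the member, by 73414 bp for Gm14005, 24449 bp for Gm13710 and 9856 bp for Mir155hg. The Mir17hg window lies inside its microRNA cluster. The shares are thus of RefSeq windows, some of which are not the promoter of the member as annotated here.

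Gm7160, whose promoter is shown above, was at 1.42, 0.688 and 1.03 FPKM in Sham, 0.4797, 0.691 and 1.03 in H/R and 2.29, 1.81 and 2.56 in EGR1OV. All EGR1OV values were higher, with a log2 change from Sham of 0.67 ± 0.16 (adjusted p = 0.00718, limma). Its partner Zcchc2 averaged 6.74 ± 0.362, 6.63 ± 0.255 and 13.7 ± 0.0738 FPKM in Sham, H/R and EGR1OV, a log2 change of 0.92 ± 0.04 in EGR1OV and -0.02 ± 0.04 in H/R.

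Lhx1os runs away from Lhx1, a homeobox gene of kidney development. Its levels were 2.09, 1.56 and 2.17 FPKM in Sham, 2.21, 0.857 and 2.26 in H/R and 0.949, 0.526 and 1.02 in EGR1OV. Replicate 2 of H/R lay within the EGR1OV range, and all Sham libraries lay above that range (-0.69 ± 0.21). Lhx1 averaged 2.07 ± 0.01897, 2.51 ± 0.108 and 1.14 ± 0.03703 FPKM in Sham, H/R and EGR1OV, and its log2 change in EGR1OV against Sham was -0.52 ± 0.05.

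Snhg18 was at 4.99, 6.29 and 5.2995 FPKM in Sham, 5.03, 4.72 and 5.39 in H/R and 3.77, 3.29 and 2.92 in EGR1OV, with EGR1OV below both other groups (-0.59 ± 0.09 against Sham, adjusted p = 0.000584, limma). Its partner Sema5a, 148 bp away, averaged 0.742 ± 0.0764, 1.08 ± 0.0989 and 0.562 ± 0.0338 FPKM and was not called against Sham (-0.16 ± 0.07). Against H/R both Snhg18 (-0.49 ± 0.09) and Sema5a were called lower in EGR1OV. Gm17501 starts 331 bp from Cyr61, a matrix protein gene of the Hippo pathway, and averaged 6.39 ± 0.338, 5.21 ± 0.0649 and 4.54 ± 0.548 FPKM. It changed by -0.42 ± 0.07 in EGR1OV, whereas the difference of Cyr61 was -0.31 ± 0.03, under the fold threshold. For A330074K22Rik and Gse1 the partner passed, at 0.39 ± 0.06, and the lincRNA differed by 0.33 ± 0.07.

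**Figure D4:**
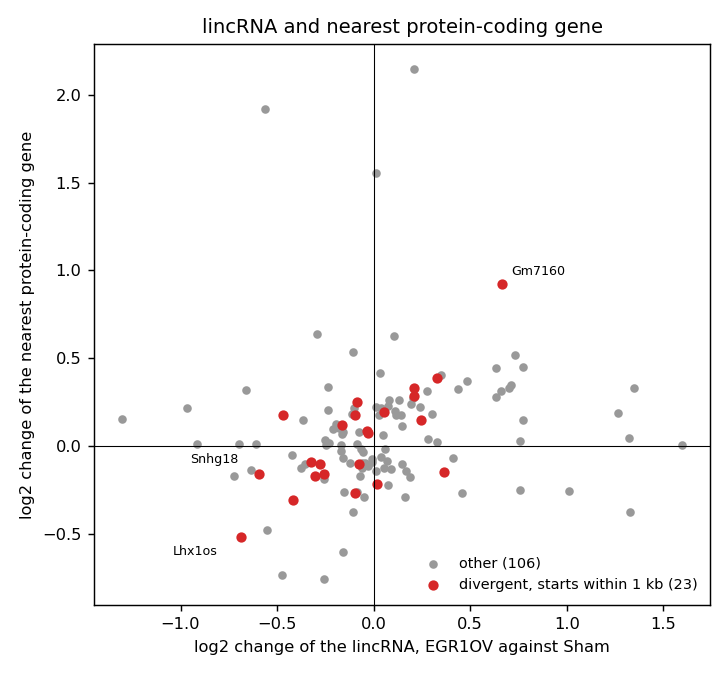
Log2 change of a member in EGR1OV against Sham (x axis) and of its nearest protein-coding gene (y axis), for the 129 members whose neighbour was tested. Red points are the 23 divergent pairs and grey points the other 106. Gm7160 (0.67, partner 0.92) and Lhx1os (-0.69, partner -0.52) are the divergent pairs in which both were called.

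H/R against Sham showed which RNAs differ after hypoxia and reoxygenation. With the adjusted p as above and a threshold of 1.2-fold, 5 members were called, 2 higher and 3 lower in H/R. This was 3.45% of members, beside 4.25% of all genes tested (1.6% higher and 2.65% lower). The split was 4 higher and 2 lower under quantile normalization and 3 and 2 under median-ratio scaling. At an adjusted p with no fold threshold 9 members or 6.21% passed, beside 11.7% of all genes. Counts depended on single libraries, with 2 members called without Sham replicate 1 and 3 without Sham replicate 3, H/R replicate 1, H/R replicate 2 or EGR1OV replicate 2. 1600027J07Rik and Gm36283 were called in all 18 refits.

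Of the members called in H/R, 1600027J07Rik was the only one among the 10 most abundant. It was at 32.5, 30.03 and 35.1 FPKM in Sham, 49.4, 45.2 and 43.6 in H/R and 21.3, 20.5 and 21.02 in EGR1OV. The groups did not overlap, with a rise of 0.49 ± 0.06 in H/R (adjusted p = 0.00188, limma) and a change of -0.61 ± 0.06 in EGR1OV (adjusted p = 3.11e-05, limma). This RNA has 3 exons on chromosome 8 from 103343878 to 103347534 and no known role. Its nearest protein-coding gene is Cdh11, a mesenchymal cadherin 558236 bp away, which averaged 40.01 ± 0.867, 50.4 ± 0.872 and 40.4 ± 1.102 FPKM in Sham, H/R and EGR1OV and rose by 0.33 ± 0.03 in H/R.

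Gm45151 was at 0.769, 0.967 and 0.681 FPKM in Sham, 1.48, 1.07 and 1.505 in H/R and 1.099, 1.46 and 1.34 in EGR1OV. Both treated groups lay above Sham, H/R was called (0.38 ± 0.10, adjusted p = 0.0454, limma), and EGR1OV at 0.35 ± 0.10 was not (adjusted p = 0.0203, limma, under 1.3-fold). C920006O11Rik was at 1.6004, 1.43 and 1.55 FPKM in Sham, 0.856, 1.05 and 1.09 in H/R and 1.46, 1.74 and 1.36 in EGR1OV. Only its H/R libraries stood apart, below the rest (-0.34 ± 0.08, adjusted p = 0.0269, limma). Gm36283 showed the same order, at 1.697, 1.82 and 1.83 FPKM in Sham, 1.15, 1.31 and 1.26 in H/R and 1.65, 1.55 and 1.76 in EGR1OV (-0.31 ± 0.06, adjusted p = 0.0125, limma).

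Gm16001, which starts 33 bp from Ogfod2 on the other strand, was lower in both treated groups. It was at 6.81, 5.56 and 4.901 FPKM in Sham, 3.55, 4.25 and 4.61 in H/R and 4.08, 3.86 and 3.63 in EGR1OV. The change was -0.39 ± 0.11 in H/R (adjusted p = 0.0471, limma) and -0.47 ± 0.11 in EGR1OV (adjusted p = 0.00607, limma). Ogfod2 averaged 6.34 ± 0.4503, 6.04 ± 0.383 and 7.28 ± 0.419 FPKM in Sham, H/R and EGR1OV and was not called against Sham (-0.06 ± 0.06 and 0.17 ± 0.06). Only 1600027J07Rik and Gm16001 were called in both comparisons with Sham, which share the Sham libraries.

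**Figure D5:**
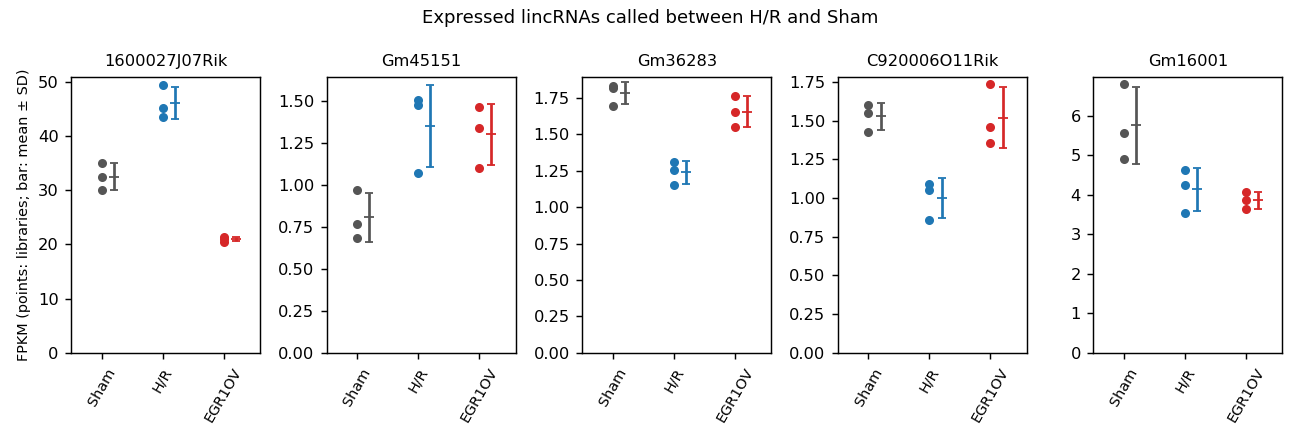
FPKM of the 5 members called between H/R and Sham, with 1 panel per member and each y axis starting at 0. Points are libraries (3 per group) and the bar beside them is the mean ± SD. 1600027J07Rik and Gm45151 were higher in H/R, the other 3 were lower, and EGR1OV lay below Sham for 1600027J07Rik and Gm16001.

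EGR1OV was also set directly against H/R. Of the members 36 were called, 23 higher and 13 lower in EGR1OV, or 24.8% beside 18.9% of all genes tested (11.9% higher and 6.94% lower). Under quantile normalization the split became 16 higher and 19 lower. With no fold threshold 57 members or 39.3% passed, a smaller share than the 51% of all genes. There were 30 members called against both Sham and H/R, and these comparisons share the EGR1OV libraries. No share of all genes is given beside this count. The largest differences were in AU020206 (1.48 ± 0.07), Gm567 (1.38 ± 0.11), Gm12603 (1.37 ± 0.16) and Gm13710 (1.35 ± 0.16) for members higher in EGR1OV, and in 1600027J07Rik (-1.10 ± 0.06), Gm37565 (-0.87 ± 0.13) and Gm29337 (-0.85 ± 0.15) for members lower. Snhg10, Snhg20 and Dubr, described above, were among the 6 members called against H/R and not against Sham.

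The annotation of the members was mixed. Their median was 3 exons and 1486 exonic bases, with a range of 284 to 20771 bases (Neat1), and 19 had 1 exon. They lay on 21 chromosomes, with 14 members on chromosome 13. RefSeq had an entry for 102, of which 89 were noncoding RNAs, 10 protein-coding genes and the other 3 pseudogenes. Zfp469, a zinc finger gene, is 1 of the 10 and averaged 10.1 ± 0.5002, 9.75 ± 0.484 and 16.2 ± 1.58 FPKM in Sham, H/R and EGR1OV, a called rise of 0.63 ± 0.07 against Sham. Of the 39 calls in EGR1OV against Sham 38 lay outside these 10, and 30 among the 97 members that overlap no other gene. Among the 126 members with at least 10 reads in every library 30 were called, 20 higher and 10 lower. No share of all genes is given for these restricted sets, so the counts do not set members apart from other genes.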

How the data were processed

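RNA-seq of total RNA from 9 libraries, assigned to 3 groups by their titles, was read from a single table. The authors deposited FPKM values for each gene, 1 column for each library. Per the labels, the processing notes name Bowtie2 2.2.3, HISAT2 2.1.0, TopHat2 and the build mm9, with no roles, but 94.6% of gene positions in the table equal GENCODE M21 (GRCm38), and coordinates follow the table. Strand setting, RNA selection and counter are not given in the sources used here.

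FPKM values are not counts. With exonic lengths of GENCODE M21, 98.7% of 154350 values of 1 to 1000 reads came out whole within 0.02, which gave the reads behind each value and depths of 16183622 to 18384009. Read numbers show counting error only, since reads lacking molecular identifiers can be copies of 1 molecule.

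All libraries entered 1 limma model (3.58.1, R 4.3.3, eBayes with trend) of log2(FPKM + 1) for 13985 genes averaging 0.5 FPKM or more, two-sided, adjusted by Benjamini-Hochberg over all of them. This scale understates the change of low genes. Calls needed an adjusted p below 0.05 and 1.3-fold, or 1.2-fold for H/R against Sham, as in the study. FPKM are mean ± SD and log2 changes ± SE. None of the 9 within-group pairs of libraries was identical, and all differed by more than sampling noise (chi-square of at least 2.03 per degree of freedom). The code was run on simulated data with known changes. These were drawn with less spread than the libraries showed, so the run checks the code and not the calls.

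The members and the 8 gene lists were chosen with earlier results of these data known. Named were the 10 highest members, members in a list, the 8 largest called rises and falls of each comparison and the members at the threshold. E130102H24Rik, A330074K22Rik, Gm17501, Zfp469, Gm4262, Gm26516 and further members of neighbour pairs and promoter matches were named after their values were seen. RefSeq sequences (GRCm38.p6) were matched by symbol, and of 36 promoters with the same start as GENCODE 34 ended in the start of a GENCODE transcript. Alternatives were another pseudocount, filter, scaling, variance model, fold threshold, membership or replicate block, voom on the recovered reads, and each library left out. Restricting members to those without overlap, with at least 10 reads throughout or not protein-coding in RefSeq was chosen after seeing the data.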

Additional observations from a re-analysis of the deposited data

Results flagged for a closer look

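1600027J07Rik stood out because it rose in H/R and fell in EGR1OV against the same Sham libraries. The log2 difference of EGR1OV from H/R was -1.10 ± 0.06. In the same fit it is the change in EGR1OV less the change in H/R, so it restates these changes and is no separate test of them. Its mean was 32.5 FPKM for Sham, 46.1 for H/R and 20.9 for EGR1OV. Of the 2 members called in both comparisons with Sham it was the one called in opposite directions. Groups of 3 libraries are too small for the test of single outlying libraries, and none was made.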

How the results depend on the processing

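For EGR1OV against Sham 39 members were called, 37 with no filter on low values, 51 at a pseudocount of 0.1 and 37 to 43 when 1 library was left out. The count was 59 with no fold threshold and 7 at 2-fold. For EGR1OV against H/R 36 were called, 33 to 38 when 1 library was left out, 57 with no fold threshold and 8 at 2-fold. The 5 calls of H/R against Sham moved more, to 8 at a pseudocount of 0.1, 2 with no filter, 3 in a model of only the groups compared, 2 among members with a mean of at least 2 FPKM, 9 with no fold threshold and 0 at 2-fold (limma, where 31 members had an unadjusted p under 0.05 and voom called 6). Leaving out 1 library gave 2 to 4, with 2 without Sham replicate 1 and 3 without Sham replicate 3, H/R replicate 1, H/R replicate 2 or EGR1OV replicate 2. The causes were not tested, and the counts here are of members alone, with no share of all genes beside them. Under quantile normalization 20 members were higher and 20 lower in EGR1OV than in Sham.

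Nothing in the labels ties equal replicate numbers to a shared culture, and libraries of the same number did not deviate together in every pair (correlations from -0.195 to 0.263). With the number as a replicate block 40 members were called for EGR1OV against Sham, 36 for EGR1OV against H/R and 2 for the remaining comparison. Among the 43 members named by the rule, none changed sign in a refit where it was called in that refit or the main fit. Sign changes of members called in neither were not counted. Of the members called in EGR1OV against Sham 29 were called in all 18 refits, of those against H/R 26, and of those in H/R against Sham 2. Depth limits the low members, 19 of which had under 10 reads in at least 1 library.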
